A study of Rattus norvegicus with 10 samples.

Results

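This account follows the rat genes of MHC class II antigen presentation in white adipose tissue of 10 rats, 5 on a noodle diet and 5 on a control diet. The 8 genes were RT1-Da, RT1-Db1, RT1-Ba, RT1-Bb, RT1-DMa, RT1-DMb, Cd74 and Ciita, of 14217 genes measured in all. They were chosen by name, and every probe set that the array's annotation gave to a single one of these symbols was used. That gave 14 probe sets of the 31042 tested. A probe set is the group of short array probes that reports 1 transcript. RT1-Ba had 4 probe sets, RT1-Bb, RT1-Db1 and Ciita had 2 each, and the others had 1.

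MHC class II molecules are pairs of an alpha and a beta chain that show peptides from swallowed proteins to CD4 T cells. RT1 is the rat name of the MHC. RT1-Da and RT1-Db1 encode the chains of RT1-D, and RT1-Ba and RT1-Bb those of RT1-B, the rat counterparts of human HLA-DR and HLA-DQ. Cd74, the invariant chain, fills the groove of a new class II pair until RT1-DM, made of RT1-DMa and RT1-DMb, helps a peptide take its place. Ciita is the coactivator that class II genes and Cd74 depend on for transcription. In fat, as elsewhere, macrophages, dendritic cells and B cells are the usual class II cells. The beta chains of RT1-B and RT1-D are among the most variable proteins between individuals, while Cd74 lies outside the MHC and is not variable in this way.

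Class II genes share a promoter module, in which an X box lies upstream of a Y box, and the stretches below show it for the members with a step or with levels that followed Cd74. RefSeq promoter sequences of build GRCr8 held 6 of the 8 members. Each line gives the 200 bases that end just before the annotated start of the gene, 5′ to 3′. Capitals mark matches to TGATTGG, the core of the Y box, and to a pattern for the X box, which reads G, 2 free bases, AC, 1 free base, G, 1 free base and TG. The 2 patterns overlap in none of these promoters.
RT1-Da, chr20:4515215-4515414 on the plus strand: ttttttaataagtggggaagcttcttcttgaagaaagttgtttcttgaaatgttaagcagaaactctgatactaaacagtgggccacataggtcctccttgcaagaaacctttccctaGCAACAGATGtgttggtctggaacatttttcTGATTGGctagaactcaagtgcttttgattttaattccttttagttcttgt
RT1-Db1, chr20:4560163-4560362 on the minus strand: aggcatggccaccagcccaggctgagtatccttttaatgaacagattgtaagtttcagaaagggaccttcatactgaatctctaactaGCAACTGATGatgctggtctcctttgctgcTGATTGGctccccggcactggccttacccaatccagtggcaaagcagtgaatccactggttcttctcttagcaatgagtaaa
RT1-Ba, chr20:4576857-4577056 on the plus strand: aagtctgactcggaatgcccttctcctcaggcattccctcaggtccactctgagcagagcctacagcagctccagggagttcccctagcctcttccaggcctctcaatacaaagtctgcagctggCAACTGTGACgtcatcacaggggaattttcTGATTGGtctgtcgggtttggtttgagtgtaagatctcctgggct
RT1-Bb, chr20:4604119-4604318 on the minus strand: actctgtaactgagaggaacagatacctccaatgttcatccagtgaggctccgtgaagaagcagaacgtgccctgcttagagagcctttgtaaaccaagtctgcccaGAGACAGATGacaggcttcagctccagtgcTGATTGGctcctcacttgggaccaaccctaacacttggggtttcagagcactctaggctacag
RT1-DMa, chr20:4712336-4712535 on the minus strand: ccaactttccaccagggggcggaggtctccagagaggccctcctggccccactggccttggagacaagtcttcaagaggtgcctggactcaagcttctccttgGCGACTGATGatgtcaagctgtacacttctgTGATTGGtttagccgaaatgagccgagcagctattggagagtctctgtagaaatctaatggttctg
Both patterns were searched on both strands in the 250 bases upstream of the start, and their letters were chosen after these promoters had been read. TGATTGG was in 5 of the 6 member promoters, against 6.71% of 27457 rat promoters of the same length, and the X pattern was in 5 of 6, against 11.3%. In RT1-Da, RT1-Db1, RT1-Bb and RT1-DMa the X pattern stood 20 or 21 bases upstream of TGATTGG on the same strand. In RT1-Ba its match was on the opposite strand, and the Cd74 promoter held neither string of letters. Only 15 of the 27457 promoters, or 0.0546%, had the X pattern followed by TGATTGG within 30 bases on 1 strand. Those 4 members were among them, as were RT1-Db2 and RT1-DOb, further class II genes, and 9 genes outside the RT1 complex. A match is a run of letters and not a measured binding site.

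All 10 rats were male and 13 weeks old, and each gave 1 array. Instant noodle made up 30% of the noodle diet by weight and fat gave 26% of its energy, and it was fed for 30 days (4 weeks in another field of the labels). The control diet left out the seasonings and was otherwise the same, and feeding was paired between the groups, near 60 g daily for each kg of body weight. The labels give no strain, genotype or batch. The arrays had medians of 6.174 to 6.182 in log2 units, and any pair of arrays correlated at 0.9934 to 0.9977. The extraction field names brain, so tissue markers were compared: the median level was 12.22 for 11 adipocyte markers and 5.74 for 9 brain markers, with the myelin gene Mbp highest among the latter at 8.76.

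Most values in the deposited table hardly differ between arrays. Of all probe sets tested, 2607 (8.4%) had an SD over the 10 arrays above 0.01, and these are called variable here. Of the 14 class II probe sets, 9 were variable and 5 were flat. The flat ones were both Ciita probe sets, at 6.67 and 6.14, the single RT1-DMb probe set, at 8.24, and 2 of the 4 for RT1-Ba, at 6.73 and 6.68. The members divided widely at that limit, since the highest SD among the flat ones was 0.00027 and the lowest among the variable ones was 0.18, for RT1-Da. No difference between animals can be read for Ciita or RT1-DMb.

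**Figure D1:**
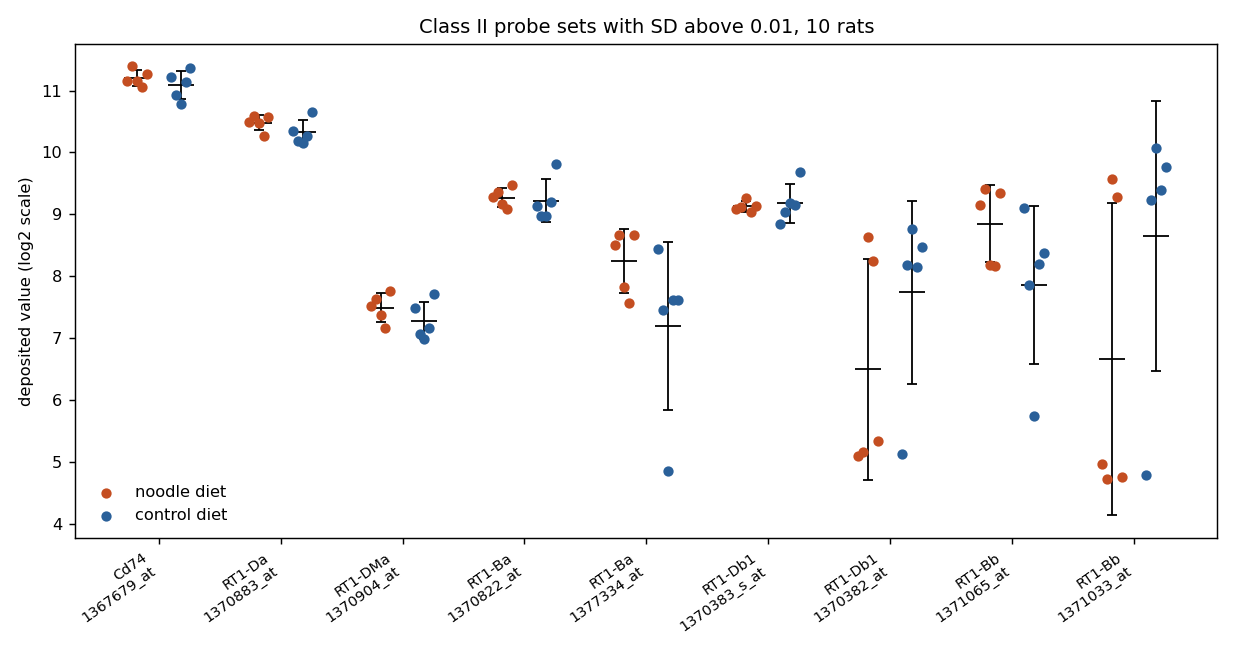
Deposited values on the log2 scale of the 9 variable class II probe sets, 1 point per rat, with black lines for the mean ± SD of the 5 rats of each diet. Cd74, RT1-Da, RT1-DMa and 1 probe set each of RT1-Ba and RT1-Db1 span less than 1 unit, while the other 4 probe sets span 3.67 to 5.35 units and fall into separate sets of animals within a diet.

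RT1-Bb and RT1-Db1, the beta chain genes, each had a probe set that was either low or high, with nothing between. RT1-Bb probe set 1371033_at stood at 4.97, 4.73, 9.57, 9.28 and 4.76 in noodle animals 1, 4, 7, 10 and 13. In control animals 2, 5, 8, 11 and 14 it stood at 4.79, 9.24, 10.08, 9.39 and 9.77. Noodle animals 1, 4 and 13 and control animal 2 were thus low, and the other 6 animals, from both diets, were high. The empty interval from 4.97 to 9.24 is 4.27 log2 units wide, or 19.3-fold on the deposited scale, and takes up 79.9% of the range. Its SD of 2.46 was the highest of the 2607 variable probe sets, and 4.73 was the lowest value of any probe set tested on any array.

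RT1-Db1 probe set 1370382_at parted the same animals. It stood at 5.10, 5.16, 8.64, 8.24 and 5.34 in noodle animals 1, 4, 7, 10 and 13, and at 5.13, 8.18, 8.77, 8.15 and 8.48 in control animals 2, 5, 8, 11 and 14. Again noodle animals 1, 4 and 13 and control animal 2 were the low ones, and the gap from 5.34 to 8.15 was 2.82 units wide, or 76.8% of the range. Control animal 8 was the highest of the 10 in both probe sets.

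The second probe set of RT1-Bb and one of RT1-Ba, the alpha chain gene of the same molecule, had the opposite order. RT1-Bb probe set 1371065_at stood at 9.15, 9.41, 8.18, 8.17 and 9.34 in noodle animals 1, 4, 7, 10 and 13, and at 9.11, 7.86, 5.74, 8.20 and 8.38 in control animals 2, 5, 8, 11 and 14. RT1-Ba probe set 1377334_at stood at 8.50, 8.67, 7.82, 7.57 and 8.67 in the noodle animals in that order, and at 8.44, 7.46, 4.86, 7.61 and 7.62 in the control animals. The animals that were low in the first pair of probe sets were the 4 highest here. The 5 others apart from control animal 8 lay between, and control animal 8 was far the lowest, by 2.12 and 2.59 units. The 2 RT1-Bb probe sets therefore gave opposite accounts of the same gene in the same rats, and in every animal at least one of them read 9.11 or more. Probe sets bind with different strength, so the level of one cannot be set against the level of the other.

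**Figure D2:**
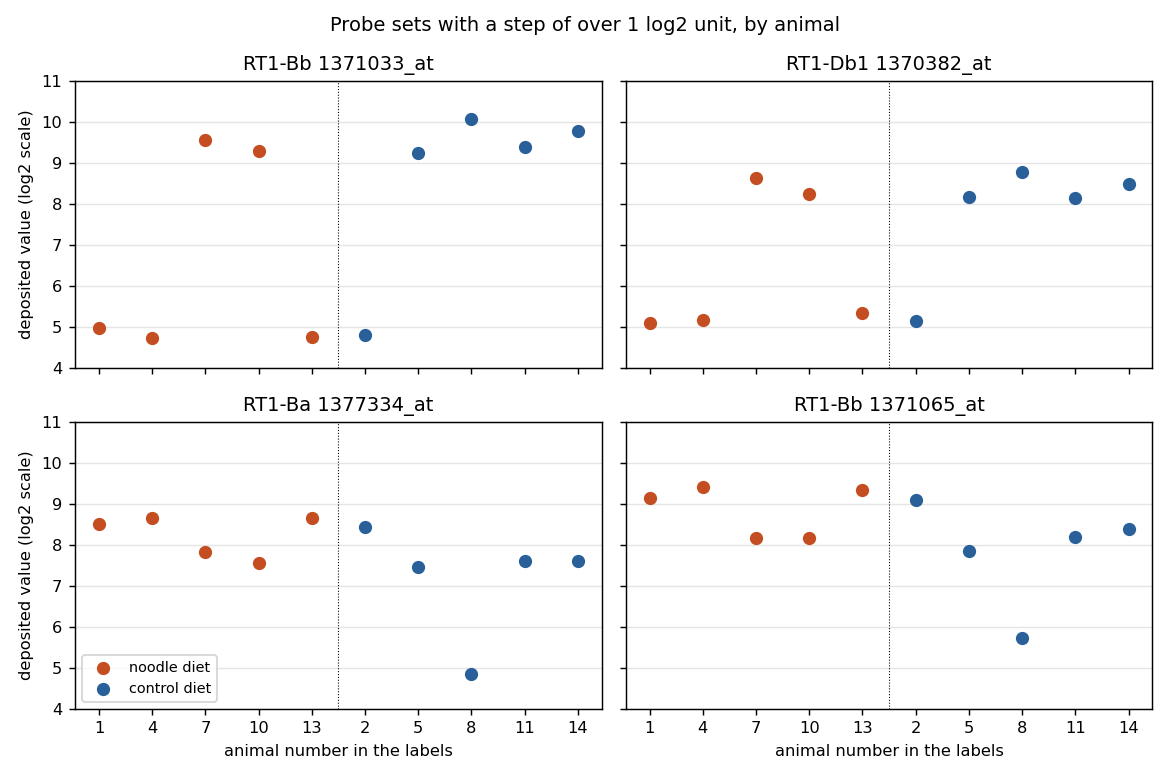
Deposited values on the log2 scale of the 4 class II probe sets with a gap of over 1 unit, for each rat by its animal number, with noodle animals to the left of the dotted line and control animals to the right. Noodle animals 1, 4 and 13 and control animal 2 are low in the upper panels and highest in the lower ones, and control animal 8 is highest above and lowest below.

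The other probe sets of these genes had no such step. RT1-Ba probe set 1370822_at, the brighter of its variable pair, stood at 9.28, 9.36, 9.17, 9.08 and 9.47 in noodle animals 1, 4, 7, 10 and 13, and at 9.14, 8.98, 8.97, 9.20 and 9.81 in control animals 2, 5, 8, 11 and 14. RT1-Db1 probe set 1370383_s_at stood at 9.08, 9.12, 9.27, 9.04 and 9.14 in the noodle animals and at 8.84, 9.04, 9.18, 9.15 and 9.68 in the control animals. By the array maker's naming, the ending _s_at marks probes that can match transcripts of more than 1 gene. Control animal 14 was the highest of the 10 in both. In 1370822_at, noodle animals 1, 4 and 13 came next below it, and control animal 2 lay lower, among the others. In 1370383_s_at, control animal 2 was the lowest of the 10, and noodle animals 1, 4 and 13 lay among the others.

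Steps of this size were uncommon on the array. The widest gap between neighbouring animals exceeded 1 log2 unit in 4 of the 9 variable class II probe sets and in 30 of all 2607 variable ones (1.15%). It exceeded 50% of the range in the same 4 and in 9.05% of all variable ones. RT1-Db1 1370383_s_at lay just under that limit at 49.2%. Cd74, RT1-Da and RT1-DMa had gaps of 23.9%, 25.6% and 28.3% of their range, near or below the median of 31.6% over all variable probe sets. Both limits were set after the values had been seen, and these shares are a description without a test.

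**Figure D3:**
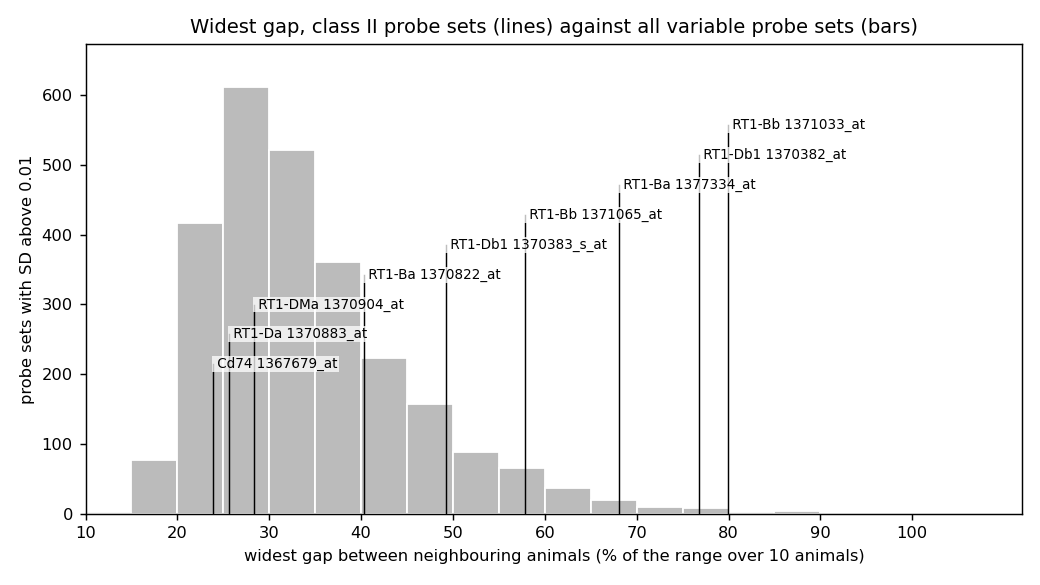
Widest gap between neighbouring animals as a percentage of the range over the 10 rats, with bars counting all 2607 variable probe sets and vertical lines marking the 9 class II ones. RT1-Bb 1371033_at (79.9%) and RT1-Db1 1370382_at (76.8%) lie in the thin upper tail, while Cd74, RT1-Da and RT1-DMa lie in the bulk.

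The split of the RT1-Bb and RT1-Db1 probe sets recurred in a few other probe sets, some of them of RT1 class I genes. In 7 variable probe sets the widest gap exceeded 1 unit and set noodle animals 1, 4 and 13 and control animal 2 below the other 6 rats, and in 0 did it set them above. Of the 7, 2 were these class II members, 1 was the class I gene RT1-CE16, and 4 had no gene symbol in the annotation. Whether those 4 lie in the RT1 complex was not examined. RT1-CE16 lay between 5.09 and 5.20 in those 4 animals and between 8.52 and 9.33 in the others. RT1-CE5, also class I, had a smaller step in 1370972_x_at, from 5.87 to 6.22 against 7.03 to 7.55. In RT1-S3, another class I gene, noodle animal 4 did not go with this split. The widest gap of its variable probe sets set only noodle animals 1 and 13 and control animal 2 low. In 1388212_a_at these stood at 7.93, 7.88 and 7.87, and noodle animal 4 was the highest, at 8.28. Of the 13 variable probe sets of other RT1 genes with a single symbol, 6 had their lowest value in control animal 8, against 7.75% of all variable probe sets. Among these were RT1-T24-3, at 6.30 in that animal and 7.90 or more in the others, and RT1-N2, at 5.21 against 6.20 or more. RefSeq places RT1-Da, RT1-Db1, RT1-Ba and RT1-Bb on chromosome 20, where the class I genes RT1-CE16 and RT1-CE5 and the genes RT1-T24-3 and RT1-N2 also lie. No genotype was used here, so whether the steps follow RT1 alleles that bind some probes and not others was not tested.

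Cd74, the invariant chain, varied smoothly. It stood at 11.15, 11.39, 11.16, 11.06 and 11.27 in noodle animals 1, 4, 7, 10 and 13, and at 11.22, 10.93, 10.79, 11.14 and 11.37 in control animals 2, 5, 8, 11 and 14. Its whole range was 0.60 log2 units, or 1.52-fold. Noodle animal 4 and control animal 14 were highest, control animals 8 and 5 lowest, and the diets overlapped. In bulk tissue, fewer class II cells and less class II RNA per cell cannot be told apart.

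RT1-Da, RT1-DMa and the brighter RT1-Ba probe set rose and fell with Cd74 over the 10 rats, while no such relation passed for RT1-Db1. RT1-Da, the RT1-D alpha chain gene, had values of 10.50, 10.59, 10.48, 10.27 and 10.58 in noodle animals 1, 4, 7, 10 and 13 and of 10.35, 10.19, 10.15, 10.27 and 10.66 in control animals 2, 5, 8, 11 and 14. Its Pearson r with Cd74 was 0.889 (two-sided permutation p = 0.00021, 0.00042 adjusted over the 4 genes) and its Spearman rho 0.939 (permutation p = 0.00028, adjusted 0.001). Both genes were lowest in control animal 8 and next lowest in control animal 5.

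RT1-DMa, the alpha chain gene of the peptide exchanger, had values of 7.52, 7.64, 7.38, 7.16 and 7.76 in the noodle animals and of 7.49, 7.07, 6.99, 7.16 and 7.71 in the control animals, in the same order. Its r with Cd74 was 0.898 (permutation p = 0.00016, adjusted 0.00042) and its rho 0.915 (permutation p = 0.0005, adjusted 0.001). RT1-Ba 1370822_at had an r of 0.809 (permutation p = 0.0049, adjusted 0.00653) and a rho of 0.855 (permutation p = 0.00296, adjusted 0.00395). For these 3 genes the relation held without noodle animal 4 and control animal 8, the rats farthest from the median of Cd74. There r was 0.864 for RT1-Da, 0.886 for RT1-DMa and 0.878 for RT1-Ba over the remaining 8 rats. In the 5 noodle and 5 control rats, r was 0.848 and 0.895 for RT1-Da and 0.815 and 0.931 for RT1-DMa. For RT1-Ba it was 0.782 and 0.836. These values within each diet were not tested.

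RT1-Db1 1370383_s_at had an r of 0.297 with Cd74 (permutation p = 0.392, which is also its adjusted value) and a rho of 0.188 (permutation p = 0.604, also its adjusted value). Without the same pair of rats its r was 0.557, within the diets it was 0.162 and 0.40, and without control animal 14 it was -0.124. The level of RT1-Db1 therefore had no relation to Cd74 that passed the test, and the sign rested on that animal. The RT1-D alpha chain gene and the brighter RT1-Db1 probe set had an r of 0.503 with each other, against 0.952 for RT1-Da and RT1-DMa.

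No correlation over all 10 rats was tested for any of the 4 probe sets with steps on its own, because their animals fall into separate sets. Such an r enters only the ranking below, for 1371065_at, and an alternative that averages the probe sets of RT1-Ba and of RT1-Db1. Within the 6 high rats, r with Cd74 was -0.15 for RT1-Bb 1371033_at (exact permutation p = 0.785, also after adjustment over 4 values) and -0.176 for RT1-Db1 1370382_at (exact permutation p = 0.729, adjusted 0.785), with rho of 0.143 and -0.0857 (exact permutation p = 0.803 and 0.919, both 0.919 adjusted). Over the 9 rats other than control animal 8, r was 0.66 for RT1-Bb 1371065_at (exact permutation p = 0.0573, adjusted 0.229) and 0.56 for RT1-Ba 1377334_at (exact permutation p = 0.121, adjusted 0.242). The rho over these 9 rats was 0.80 and 0.75 (exact permutation p = 0.0138 and 0.0255, both 0.051 adjusted). Without the pair of rats farthest from the median of Cd74 in each set, those 4 values were 0.82, 0.514, 0.321 and 0.204. None of the 4 passed after adjustment, by r or by rho. The 9 rats still held 2 sets, so their r and rho mix a step with the spread inside each set. In 1371065_at, noodle animals 1, 4 and 13 and control animal 2 stood at 9.11 to 9.41. The other 5 stood at 7.86 to 8.38.

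**Figure D4:**
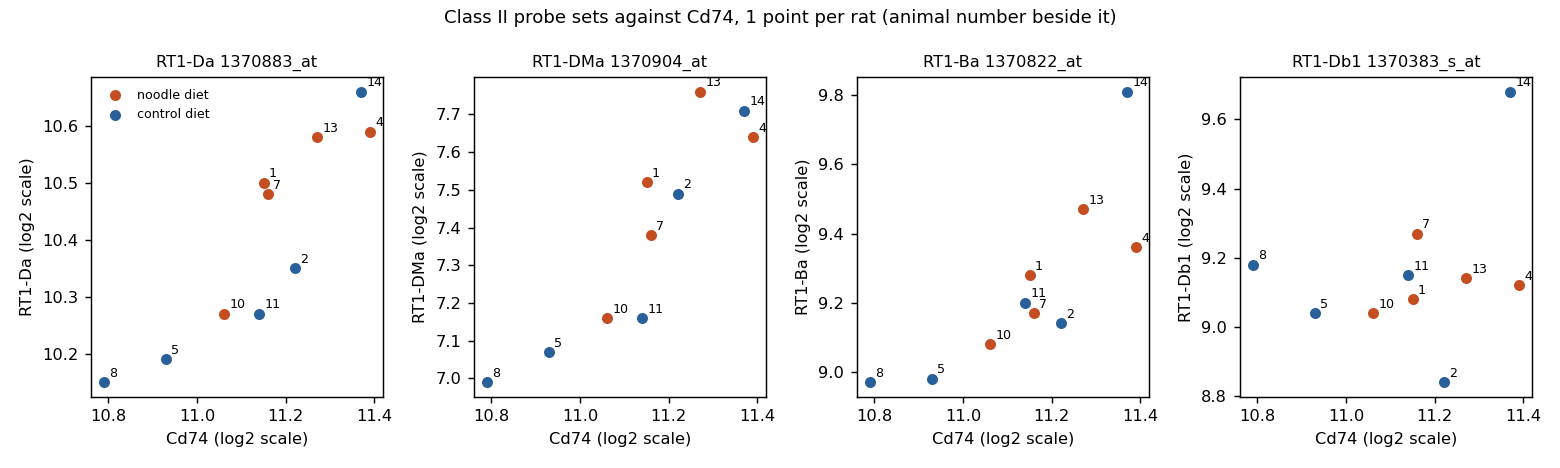
Deposited log2 values of 4 class II probe sets without a step against that of Cd74, 1 point per rat with its animal number, orange for the noodle and blue for the control diet. RT1-Da (r = 0.889), RT1-DMa (r = 0.898) and RT1-Ba (r = 0.809) rise with Cd74. The relation of RT1-Db1 (r = 0.297) did not pass its test, and there control animal 14 stands above the rest.

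Among 1631 genes with a variable representative probe set, ranked by r with Cd74 over the 10 rats, RT1-DMa was in place 5, RT1-Da in place 8, RT1-Ba in place 25 and RT1-Db1 in place 621. RT1-Bb was in place 18 by 1371065_at, a probe set with a step, in which control animal 8 was the lowest of the 10, as it was in Cd74. The 10 genes most like Cd74 included Crip2 (r = 0.927), Entpd2, an ATP-splitting surface enzyme (0.907), Stab1, a scavenger receptor of macrophages and sinus endothelium (0.904), and Psmb8, a subunit of the immunoproteasome encoded beside the class II genes (0.904). Antxr2 and C1qtnf2 (both 0.894), Eid1 (0.872, with a range of 8.30 to 10.84) and Septin9 (0.859) completed them with RT1-DMa and RT1-Da. These genes were picked for their r, so the values are a description.

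Measures of cell content and array quality moved with Cd74 less closely. The mean of 12 variable macrophage markers had an r of 0.516 with Cd74 (permutation p = 0.127, 0.195 adjusted over 6 relations) and a rho of 0.709 (permutation p = 0.0264, adjusted 0.159). It ranged from 8.41 to 8.88 in the noodle rats and from 8.30 to 8.83 in the controls. The gap between probe sets at the 3-prime and 5-prime ends of Actb and Gapdh, which widens as RNA breaks down, had an r of -0.572 with Cd74 (permutation p = 0.0821, adjusted 0.195) and a rho of -0.529 (permutation p = 0.118, adjusted 0.268). The mean of 18 hybridization control probe sets, which report added transcripts, had an r of -0.52 (permutation p = 0.125, adjusted 0.195), a rho of -0.515 (permutation p = 0.134, adjusted 0.268), and its highest value, 10.3223, in control animal 8. Without noodle animal 4 and control animal 8 these r values were 0.667, -0.704 and -0.0504. With this 3-prime to 5-prime difference removed by regression, r with Cd74 was 0.893 for RT1-Da, 0.863 for RT1-DMa and 0.699 for RT1-Ba. Removing the hybridization controls in the same way gave 0.876, 0.861 and 0.891, and raised that of RT1-Db1 to 0.692 (permutation p = 0.0233, also its adjusted value). The mean of 3 red blood cell markers had an r of -0.511 (permutation p = 0.13, adjusted 0.195; rho -0.333, permutation p = 0.347, adjusted 0.521), which was 0.0659 without those rats, and adipocyte and mesothelial means had r of 0.0173 and 0.137 (permutation p = 0.963 and 0.705, adjusted 0.963 and 0.846; rho -0.0788 and 0.0545, permutation p = 0.837 and 0.892, both 0.892 adjusted).

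No class II probe set passed the test between the diets, and for Ciita and RT1-DMb, flat throughout, no difference can be read. Of the 14 probe sets, 0 passed an adjusted p of 0.05 in limma over all probe sets, where 0% of all 31042 did, and 0 had an unadjusted p under 0.05, against 4.77% of all (2.48% higher and 2.29% lower in the noodle group). The groups overlapped in each of the 14, while they did not in 0.718% of all probe sets and 0.959% of all variable ones. For 14 probe sets, 5 of them flat, these counts of 0 are near the shares over all probe sets. They are therefore not a result about class II. Of the 9 variable class II probe sets, 6 were higher and 3 lower in the noodle group. Their median difference was 0.116 log2 units, against -0.012 over all variable probe sets. Their adjusted p in limma lay between 0.993 and 0.999.

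Cd74 averaged 11.21 ± 0.125 on the noodle diet and 11.09 ± 0.232 on the control diet (SD, n = 5 each), a difference of 0.12 ± 0.11 (SE, limma adjusted p = 0.993). The difference was 0.16 ± 0.10 for RT1-Da, 0.21 ± 0.17 for RT1-DMa, 0.05 ± 0.16 for RT1-Ba 1370822_at and -0.05 ± 0.14 for RT1-Db1 1370383_s_at. The 95% interval was -0.14 to 0.38 for Cd74, -0.08 to 0.39 for RT1-Da, -0.17 to 0.58 for RT1-DMa, -0.32 to 0.42 for RT1-Ba and -0.37 to 0.27 for RT1-Db1. With the 3-prime to 5-prime difference as a covariate, which was 0.753 to 0.926 in the noodle rats and 0.8232 to 1.0609 in the controls, Cd74, RT1-Da, RT1-DMa and RT1-Ba turned to -0.0193, -0.0301, -0.0706 and -0.247, and RT1-Db1 moved to -0.279. With the hybridization controls as a covariate, Cd74 was at 0.0192, RT1-DMa at 0.0767 and RT1-Db1 at 0.077. Without control animal 14, Cd74 was at 0.186, RT1-DMa at 0.312, RT1-Ba at 0.198, RT1-Db1 at 0.0756 and RT1-Da at 0.242 (limma unadjusted p = 0.0116, adjusted 0.999). Without control animal 8, Cd74 was at 0.0405, RT1-DMa at 0.132 and RT1-Ba at -0.0105.

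The probe sets with steps had wide and contradictory diet differences. RT1-Bb was lower by 1371033_at, at -1.99 ± 1.45 (95% interval -5.29 to 1.30), and higher by 1371065_at, at 0.99 ± 0.61. RT1-Db1 1370382_at differed by -1.25 ± 1.0 and RT1-Ba 1377334_at by 1.05 ± 0.63, each with a limma adjusted p of 0.993. The low animals of RT1-Bb 1371033_at and RT1-Db1 1370382_at were 3 of the 5 noodle and 1 of the 5 control rats, and control animal 8 was the lowest in the other pair. The difference of RT1-Bb 1371065_at was 0.465 without control animal 8 and 0.245 with the hybridization controls as a covariate.

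**Figure D5:**
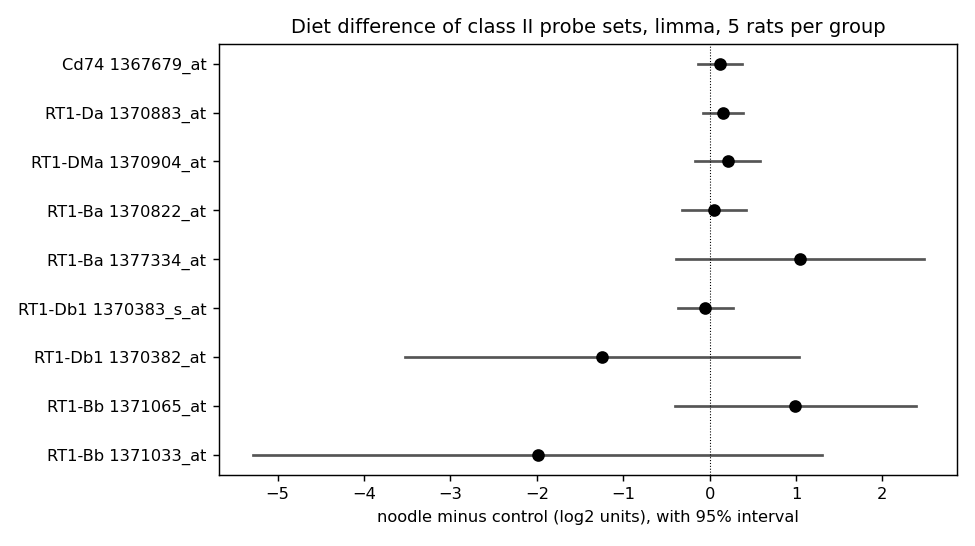
Noodle minus control difference in log2 units with its 95% interval from limma for the 9 variable class II probe sets, 5 rats per group. Each interval includes 0, and those of the 4 probe sets with steps are several times wider than the others, with RT1-Bb on both sides of 0.

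The wider presentation pathway gave no called gene either. Of 21 measured genes of class I presentation 7 were variable, 4 higher and 3 lower, and 0 passed. Psmb8 differed by 0.19 ± 0.12. RT1-T24-4 differed by 0.47 ± 0.29, with control animal 8 at 8.10 and the other rats at 9.14 or more. RT1-CE16, with its step, differed by -1.53 ± 1.09. RT1-CE5 differed by -0.57 ± 0.36 in 1370972_x_at, which also has the step, but by 0.35 ± 0.16 and 0.37 ± 0.19 in its other variable probe sets, 1371209_at and 1388255_x_at. Of 14 endosomal processing genes 5 were variable, 4 higher and 1 lower, and 0 passed. Ctss, the cathepsin that trims the invariant chain, differed by 0.16 ± 0.09, Ctsh by 0.12 ± 0.09, Ctsd by -0.03 ± 0.11 and the cathepsin inhibitor Cst3 by 0.02 ± 0.10.

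Of 16 regulators of class II transcription measured, 1 was variable, where 8.4% of all probe sets were. It was the interferon receptor kinase Jak1, which differed by -0.11 ± 0.08. Of 14 interferon response genes 4 were variable, 2 higher and 2 lower, and 0 passed: Cxcl10, a chemokine that interferon induces, differed by -0.26 ± 0.15, Isg15 by 0.14 ± 0.23, Irf7 by 0.04 ± 0.16 and Mx1 by -0.05 ± 0.29. Of 8 costimulatory genes 1 was variable, Icoslg, at -0.10 ± 0.18.

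Of the cells that carry class II, macrophages were the ones with many variable markers. Of 14 measured macrophage markers 12 were variable, 11 higher and 1 lower in the noodle group, and 0 passed. Of all variable probe sets 44.6% were higher. Markers of 1 cell type are not separate results, so the count of directions is a description. The complement genes C1qa and C1qb differed by 0.36 ± 0.18 and 0.35 ± 0.21, Aif1 by 0.18 ± 0.10 and Trem2 by -0.30 ± 0.14. Dendritic cell markers had 2 variable genes of 6 measured, Clec10a at 0.26 ± 0.16 and Flt3 at -0.13 ± 0.19. None of the 6 measured B cell markers was variable, and their median level was 5.78, below the array medians. Of 11 T cell markers, with a median of 6.01, only Thy1, which stromal cells also carry, was variable, at -0.13 ± 0.21.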

How the data were processed

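White adipose tissue RNA of 10 rats was measured on 1 array each, with biotin-labelled cRNA made from 100 ng of total RNA, per the labels' protocols. The values the authors deposited, 1 for each array and probe set, were read as log2 because of their range. How the authors corrected background, summarised and normalized them, and the log base, is not stated in the labels, so folds are on the deposited scale. The 57 control probe sets were left out of tests. Among the others the array annotation gives 1 symbol to 20826, several to 436 and no symbol to 9780. All 8 member symbols matched RefSeq.

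The brightest probe set represented a gene. Diets were compared with limma 3.58.1 in R 4.3.3 (two-sided, Benjamini-Hochberg over 31042 probe sets, checked on simulated data). Correlations used 100000 permutations for 10 rats and all orders for fewer. The alternative on deviations from each diet group mean used all orders within each diet. p-values measure the spread between animals, and 5 arrays per group limit precision. The text names all member probe sets, up to 4 variable genes with the smallest p per pathway list, and the 10 genes most like Cd74. Members and lists were chosen with earlier results of these data known. Alternatives were other scalings, filters, variance priors, array weights, covariates, probe set choices and leaving out animals.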

Additional observations from a re-analysis of the deposited data

Results flagged for a closer look

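In 5 of 30 groups of 5 rats examined, 1 animal stood far from the other 4. For separate groups chance alone gives about 1 in 20, or 1.5. These groups share rats, and probe sets with the same step, so the 5 cannot be weighed against that number. Of the 5, 4 were class II probe sets in the control group. Control animal 2 stood at 4.79 in RT1-Bb 1371033_at, against 9.24 to 10.08 in the other controls, and at 5.13 in RT1-Db1 1370382_at, against 8.15 to 8.77. The same probe sets were low in 3 of the 5 noodle rats. Control animal 8 stood at 4.86 in RT1-Ba 1377334_at, against 7.46 to 8.44. Control animal 14 stood at 9.81 in RT1-Ba 1370822_at, against 8.97 to 9.20. Noodle animal 4 had a mean of 9.03 over red blood cell markers, against 9.36 to 9.46 in the other noodle rats.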

How the results depend on the processing

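The count of class II probe sets past the threshold was 0 under every alternative run, and that of all probe sets was 0 except for 1, Emg1, without control animal 14 (limma adjusted p = 0.0112; 0 to 1 without single animals), a gene named after its value was seen. The relations of RT1-Da, RT1-DMa and RT1-Ba to Cd74 kept their direction and passed under all 17 alternatives each. Averaging a gene's variable probe sets only repeats the main run for RT1-Da and RT1-DMa, which, like Cd74, have 1 each. For RT1-Ba that average (r = 0.873) mixes in the probe set with a step. Without single animals r lay between 0.865 and 0.917 for RT1-Da, 0.878 and 0.933 for RT1-DMa, and 0.775 and 0.854 for RT1-Ba. That of RT1-Db1 reached 0.692 and passed with the hybridization controls removed, turned to -0.451 with the mean of its probe sets, and lay between -0.124 and 0.449 without single animals; the cause was not tested. Diet differences turned with the 3-prime to 5-prime covariate for Cd74 (-0.0193), RT1-Ba (-0.247), RT1-DMa (-0.0706), RT1-DMb (-0.000106) and RT1-Da (-0.0301). RT1-Bb turned with the mean of its probe sets (-0.50) or its other probe set (-1.99). RT1-Db1 turned with array weights (0.0217) or the hybridization covariate (0.077). Flat Ciita turned with quantile normalization (0.00281), centring (0.00161) and the hybridization covariate (0.000132). Without single animals, RT1-Ba ranged from -0.0105 to 0.198, RT1-Db1 from -0.134 to 0.0756, Ciita from -0.000183 to 2.17e-05, RT1-Bb from 0.465 to 1.31, Cd74 from 0.0405 to 0.186, RT1-DMa from 0.132 to 0.312 and RT1-Da from 0.116 to 0.242. RT1-Ba was -0.00816 without control animal 5 and Ciita 8.79e-06 without noodle animal 7. The hybridization, regression and other-probe-set alternatives were chosen after seeing the data. No paired analysis was possible because no animal number occurs in both groups and no label names the rats fed as pairs.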
